A study of Homo sapiens with 8 samples.

Results

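The tripartite motif (TRIM) family of ubiquitin ligases was examined as the genes whose symbol is TRIM followed by digits only. The deposited tables held 59 such genes, of which 56 were listed in both tables, and 46 reached 1 CPM (the usual count scaled to the library total) in at least 2 of the 8 libraries and were tested among 17869 genes of the 36779 listed. The 13 genes left untested were TRIM10, TRIM15, TRIM17, TRIM29, TRIM40, TRIM43, TRIM48, TRIM50, TRIM54, TRIM63, TRIM67, TRIM71 and TRIM72. Just inside the limit, TRIM55 peaked at 1.28 CPM, and just outside it TRIM54 peaked at 0.994 CPM and TRIM17 at 0.760 CPM.

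The libraries came from total RNA of PC3 and DU145, established human prostate cancer cell lines. Cells had been transfected with a plasmid carrying circ0003553, with a plasmid carrying circ0004592, or with the negative control plasmid (NC), and each circular RNA (circRNA) had 1 library per line beside 1 NC library of its own, so that each line had 2 NC libraries. Every library thus comes from plasmid-transfected cells, and untransfected cells are not among them. No label gives the time after transfection, the plasmid dose, the backbone or how the circRNAs were made. Total counts per library were between 33444940 and 49926342. The circRNA library is the only one of its group in each line, so a within-line test takes its spread from the controls, and no label says that the 2 NC libraries of a line came from separate cultures. The p-values therefore measure the spread between these libraries, which may be technical.

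TRIM proteins usually carry a RING domain, which binds the enzyme that hands ubiquitin to a substrate, followed by B-box domains and a coiled coil, and a C-terminal domain that recognises the substrate. Many members are themselves made in larger amounts after interferon, whose signal reaches genes through the interferon-stimulated response element in their promoters. In infected cells several TRIM ligases act upstream and downstream of the RNA and DNA sensors that start interferon production, and others bind viral capsids or nucleoproteins.

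Because the members that differed most were interferon-linked, their promoters were searched for GAAA, any 2 bases and GAAA again, the core of that response element, on both strands and with overlapping matches merged. The RefSeq windows (GRCh38.p14) run from 250 bases before to 50 bases after a gene's start. A window was found for 35 of the 46 members, TRIM22 not among them, and 9 of these (25.7%) held the motif, against 1255 of all 35116 windows (3.57%) and 1195 of 27305 genes (4.38%). The 9 are printed because they show which members carry these letters. The first 7 belong to genes that were higher in PC3 with either circRNA, each 5′ to 3′ on the gene's own strand with the motif in capitals.
TRIM21: ctgagcgGAAACTGAAAGTGAAAtagggag
TRIM5: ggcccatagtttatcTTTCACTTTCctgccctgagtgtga
TRIM14: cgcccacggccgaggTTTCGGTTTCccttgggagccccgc
TRIM69: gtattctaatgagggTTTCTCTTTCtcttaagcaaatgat
TRIM34: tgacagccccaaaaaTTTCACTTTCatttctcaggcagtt
TRIM26: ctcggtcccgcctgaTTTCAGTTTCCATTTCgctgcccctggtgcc
TRIM44: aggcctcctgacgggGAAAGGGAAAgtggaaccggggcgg
The remaining 2 belong to genes that were lower in PC3.
TRIM2: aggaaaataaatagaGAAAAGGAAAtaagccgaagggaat
TRIM16: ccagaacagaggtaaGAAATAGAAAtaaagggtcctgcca
The windows lie at chr11:4393663-4393692, chr11:5685077-5685116, chr9:98119224-98119263, chr15:44736451-44736490, chr11:5624896-5624935, chr6:30213570-30213615, chr11:35662725-35662764, chr4:153151931-153151970 and chr17:15683007-15683046 in the order printed, with the genes of TRIM21, TRIM5, TRIM14, TRIM26 and TRIM16 on the minus strand. The TRIM5 match begins 27 bases before the start and the TRIM14 match 26 bases before it, whereas the TRIM21 match begins at base 18 after the start. In TRIM21 and TRIM26 the capitals are 2 overlapping matches. The printed stretches of TRIM5, TRIM14, TRIM69, TRIM34 and TRIM26 show the reverse complement of the motif.

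In PC3 the TRIM genes listed as interferon-linked were higher, and the other members were called about as often as all genes tested. All 10 members listed as interferon-linked (TRIM5, TRIM14, TRIM21, TRIM22, TRIM25, TRIM26, TRIM34, TRIM38, TRIM56 and TRIM69) were called higher with each circRNA. That list was chosen with earlier results of these data known, so the count is a description and not a test. Of the other 36 members, 25 and 27 were not called with circ0003553 and circ0004592. Over all 17869 genes tested, 12828 and 13429 were not called. At an adjusted p of at most 0.05, 21 of the 46 members were called with circ0003553 (14 higher and 7 lower), where 28.2% of all genes tested were called, 15.6% higher and 12.6% lower. With circ0004592 19 members were called (16 higher and 3 lower), where 24.8% of all genes were called, 13.2% higher and 11.7% lower. The median log2 change over the 46 members was 0.08 with circ0003553 and 0.14 with circ0004592, against -0.01 in both comparisons over all genes tested, and it was 0.07 and 0.11 over the 43 members that had no library at or under the floor of 6 counts. Outside the 10 interferon-linked genes, 4 of 36 were called higher and 7 lower with circ0003553, and 6 higher and 3 lower with circ0004592, with medians of 0.04 and 0.02. All log2 changes below are given with their SE from the fit. In these bulk libraries, fewer cells of a type and less RNA per cell cannot be told apart. The leukocyte markers moved with the circRNAs in PC3, with a summed level of 603 and 625 CPM, against 294 and 271 CPM with NC. CD68 made up nearly all of it, the defining markers PTPRC and LYZ were at most 0.0608 and 0.0261 CPM in any library, and the part of such cells in the TRIM results was not tested.

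The motif of the printed promoters was in 7 of the 13 members with a window that were called higher in PC3 with circ0003553 (53.8%), in 2 of the 6 called lower (33.3%) and in 0 of the 16 not called. With circ0004592 it was in 7 of 14 members called higher, in 2 of 2 called lower and in 0 of 19 not called. Over all genes with a window 4.38% held the motif, and their shares by call in PC3 were not computed. The counts are therefore a description and do not show that the motif separates called from uncalled genes. TRIM6, TRIM25, TRIM33, TRIM38, TRIM52 and TRIM56 were called higher with each circRNA and had windows without these letters, which says nothing of a factor's binding.

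TRIM22, an interferon-induced ligase that restricts several viruses, was the member that differed most. It was at 301 and 298 CPM in PC3 with circ0003553 and circ0004592, against 1.17 and 1.12 CPM in their NC libraries. In counts, 9821 and 9817 stood against 42 and 40. The fitted log2 changes were 8.04 ± 0.10 and 8.02 ± 0.10 (SE; edgeR adjusted p 1.56e-21 and 1.58e-21). In DU145 the gene had 20 and 0 counts with circ0003553 and circ0004592, against 9 and 2 counts in the NC libraries. Only 2 of these 4 DU145 libraries were above the floor, which stands for 3 read pairs, so no fold change is given for that line. Per length, TRIM22 stood 45th of the 46 members in the PC3 NC libraries by RPKM (counts scaled by gene length and by library total) and 4th with either circRNA.

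TRIM21, the cytosolic antibody receptor that marks antibody-coated particles for degradation, measured 249 and 247 CPM in PC3 with circ0003553 and circ0004592, against 28.6 and 28.8 CPM with NC. All 4 DU145 libraries lay near the PC3 controls, with 20.6 and 23.9 CPM with the circRNAs and 21.7 and 23.2 CPM with NC. The PC3 log2 changes were 3.12 ± 0.06 and 3.11 ± 0.06 (SE; edgeR adjusted p 1.91e-18 and 2.12e-18), and TRIM21 moved to 1st of the 46 members by RPKM in both PC3 circRNA libraries, against 9th in the PC3 controls. TRIM5, which binds incoming retroviral capsids, showed the same layout, with 165 and 160.4 CPM in the PC3 circRNA libraries, against 20.8 and 19.1 CPM with NC. In DU145 it had 16.7 and 16.0 CPM with the circRNAs, against 17.8 and 18.3 CPM with NC. Its PC3 log2 changes were 3.05 ± 0.07 and 3.01 ± 0.07 (SE).

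TRIM34, a close relative of TRIM5, had 29.2 and 23.9 CPM in the PC3 circRNA libraries, against 5.81 and 5.56 CPM with NC, and 5.59 and 5.32 CPM in the DU145 circRNA libraries, against 4.76 and 3.71 CPM with NC. Its PC3 log2 changes were 2.36 ± 0.13 and 2.07 ± 0.14 (SE). Most of the exonic bases of TRIM34 (2233 of 2690, 83.0%) are shared on the same strand with the readthrough gene TRIM6-TRIM34, whose count equalled 84.8% to 92.1% of the summed TRIM6 and TRIM34 counts in the 8 libraries, and reads cannot be told apart between the 3 with certainty. TRIM6, a ligase that makes unanchored ubiquitin chains, stood at 40.9 and 39.7 CPM in PC3 with the circRNAs, against 26.0 and 23.7 CPM with NC (log2 0.72 ± 0.09 and 0.67 ± 0.09). In DU145 the order was the other way, with 28.9 and 30.5 CPM for the circRNAs, against 36.2 and 36.1 CPM for NC. TRIM69, a ligase first described in germ cells, had 105 and 109 CPM in PC3 with the circRNAs, against 15.6 and 18.4 CPM with NC (log2 2.63 ± 0.09 and 2.68 ± 0.09), while DU145 held 9.73 and 9.85 CPM with the circRNAs, against 10.2 and 9.65 CPM with NC. For each of these genes the PC3 circRNA libraries lay above all the other 6.

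Among the interferon-linked members, TRIM14, TRIM25, TRIM56, TRIM38 and TRIM26 are known for acting on innate immune signalling. TRIM14, a RING-less adaptor at mitochondria in RIG-I signalling, had 463 and 369 CPM in PC3 with circ0003553 and circ0004592, against 57.3 and 51.7 CPM with NC. In DU145 it had 100.1 and 128 CPM with the circRNAs, against 119 and 118 CPM with NC, and all 4 of these values exceeded the PC3 controls. Its log2 changes in PC3 were 3.09 ± 0.06 and 2.76 ± 0.06 (SE; edgeR adjusted p 1.23e-18 and 7.81e-18). TRIM25, a ligase that modifies RIG-I and is cofactor of the antiviral protein ZAP, measured 353 and 352 CPM in PC3 with the circRNAs, against 148 and 160.3 CPM with NC (log2 1.19 ± 0.06 and 1.19 ± 0.06). A minority of the exonic bases of TRIM14, TRIM25 and TRIM38 (7.7%, 8.1% and 2.9%) overlap a gene on the other strand, and the strand setting of the counting is not given in the sources used here. In DU145 TRIM25 had 142 and 141 CPM with the circRNAs, against 129 and 127 CPM with NC. TRIM56, which promotes signalling from STING and cGAS, had 348 and 329 CPM in PC3 with the circRNAs, against 226 and 214 CPM with NC (log2 0.66 ± 0.06 and 0.58 ± 0.06). It had 140.5 and 129 CPM in DU145 with the circRNAs, against 115 and 116 CPM with NC. Both groups stayed apart in both lines for TRIM25 and TRIM56, but the distance in DU145 was at most 0.28 on the log2 scale.

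TRIM38, which limits Toll-like receptor signalling, reached 141 and 144 CPM in PC3 with the circRNAs, against 32.8 and 34.6 CPM with NC (log2 2.07 ± 0.07 and 2.10 ± 0.07). In DU145 the 2 groups overlapped, with 29.7 and 23.8 CPM with the circRNAs and 26.7 and 25.1 CPM with NC. TRIM26, a ligase reported to act on nuclear IRF3, had 111 and 109.7 CPM in PC3 with the circRNAs, against 39.7 and 46.5 CPM with NC (log2 1.37 ± 0.08 and 1.35 ± 0.08). Its DU145 values again overlapped, at 85.0 and 92.7 CPM with the circRNAs and 90.3 and 85.3 CPM with NC. The circRNA libraries of PC3 thereby came above the DU145 range for TRIM26, whose PC3 controls lay below it. TRIM44, a RING-less member with an activity that removes ubiquitin, had 336 and 301 CPM in PC3 with the circRNAs, against 215 and 220.5 CPM with NC (log2 0.63 ± 0.06 and 0.46 ± 0.06), and in DU145 222 and 230.0 CPM with the circRNAs, against 288 and 266 CPM with NC.

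**Figure D1:**
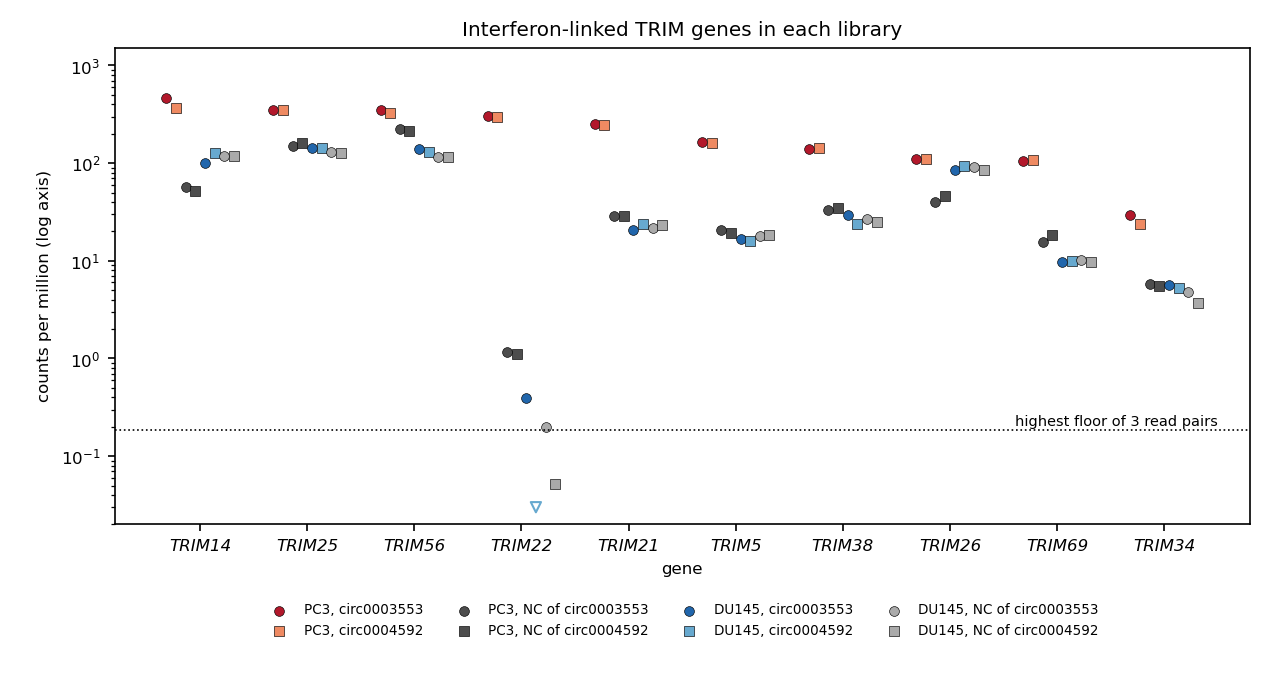
CPM (log axis) of the 10 interferon-linked TRIM genes, 1 point per library; the open triangle marks the library with 0 counts of TRIM22 and the dotted line the highest floor of 3 read pairs. For every gene both PC3 circRNA libraries lie above both PC3 controls, and TRIM22 lies at 301 and 298 CPM, against 1.17 and 1.12 CPM in the controls.

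The family's summed level changed with these genes. The 46 members summed to 676 and 665 RPKM in PC3 with circ0003553 and circ0004592, against 328 and 332 RPKM in the PC3 controls. The 10 interferon-linked members supplied 63.8% and 62.4% of these sums with the circRNAs, against 27.3% and 27.4% with NC. The other 36 members summed to 244 and 250 RPKM with the circRNAs, against 238 and 241 RPKM with NC. In DU145 the family summed to 304 and 313 RPKM with the circRNAs, against 322 and 317 RPKM with NC, and the interferon-linked share was 31.1% and 30.7%, against 29.1% and 28.9%. In PC3 libraries the highest members by RPKM were TRIM21 (125 and 126 RPKM), TRIM14 (82.0 and 66.3 RPKM) and TRIM25 (51.3 and 52.0 RPKM) with the circRNAs, whereas TRIM28, the corepressor of zinc finger proteins, and TRIM37 led the PC3 controls with means of 29.0 and 26.5 RPKM.

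**Figure D2:**
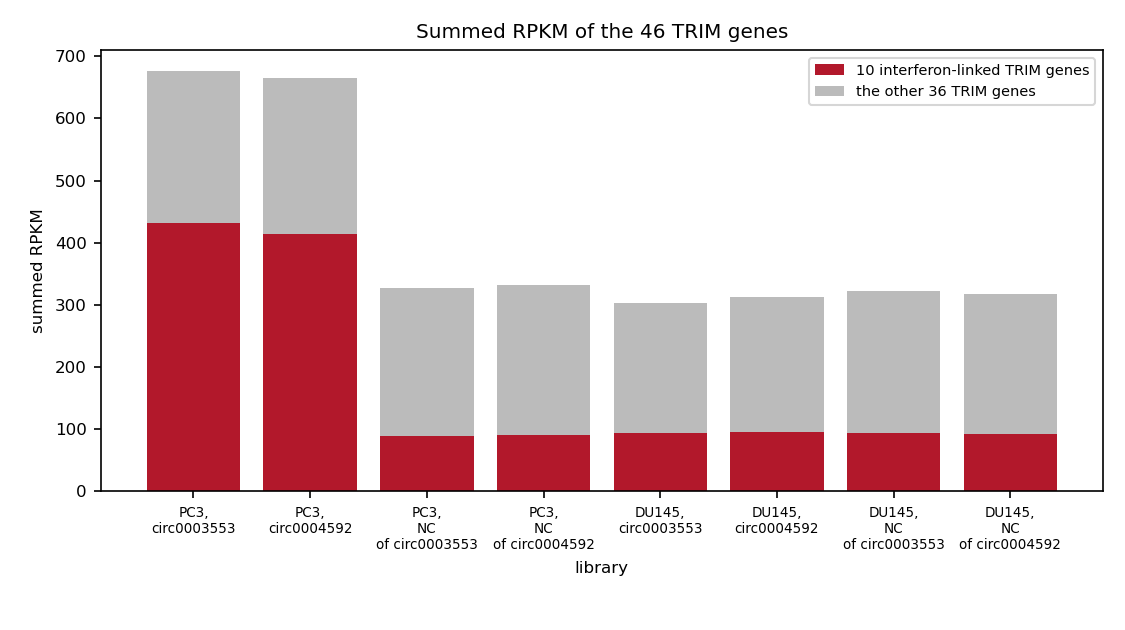
Summed RPKM of the 46 TRIM genes in each library, split into the 10 interferon-linked genes (lower part of the bar) and the other 36. The PC3 circRNA libraries reach 676 and 665 RPKM, against 328 and 332 RPKM in their controls, while the other 36 sum to 244 and 250 RPKM, against 238 and 241 RPKM.

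TRIM2, TRIM16 and TRIM27 were called lower in PC3 with each circRNA. TRIM2, a brain-enriched ligase with NHL repeats, had 5.25 and 3.98 CPM with circ0003553 and circ0004592, against 9.75 and 9.72 CPM with NC (log2 -0.89 ± 0.17 and -1.29 ± 0.18; edgeR adjusted p 0.000494 and 1.67e-05). In DU145 its values overlapped, at 4.95 and 5.29 CPM with the circRNAs and 5.52 and 4.81 CPM with NC. TRIM16, a RING-less ligase of the oxidative and membrane damage responses, had 17.7 and 18.7 CPM in PC3 with the circRNAs, against 25.3 and 24.6 CPM with NC (log2 -0.49 ± 0.08 and -0.42 ± 0.08). TRIM16 was also lower in DU145 with circ0003553, at 105 CPM, against 135 and 134 CPM in the NC libraries (log2 -0.36 ± 0.06), and it had 128 CPM with circ0004592. TRIM16 has the near-identical copy TRIM16L, between which reads may be split, and TRIM16L also fell in PC3 with circ0003553 (log2 -0.35 ± 0.10). TRIM27, a ligase with roles in endosomal sorting, had 74.5 and 74.7 CPM in PC3 with the circRNAs, against 86.4 and 89.9 CPM with NC (log2 -0.24 ± 0.06 and -0.24 ± 0.06).

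With circ0003553 alone in PC3, TRIM31 (-0.47 ± 0.17), TRIM3 (-0.47 ± 0.16), TRIM7 (-0.45 ± 0.14) and TRIM65 (-0.40 ± 0.11) were called lower, and no test of the difference between the circRNAs set them apart. TRIM33, a chromatin-binding ligase of TGF-beta signalling, was called higher at 0.34 ± 0.08 and 0.32 ± 0.08, and TRIM52 at 0.23 ± 0.08 and 0.30 ± 0.08. With circ0004592, TRIM39 (0.28 ± 0.09) and TRIM8 (0.23 ± 0.07), which acts on NF-kappa-B signalling, were called higher as well. All these log2 values were below 0.5 in size. Across the other settings tried, 14 of the 21 calls with circ0003553 held in every one (TRIM2, TRIM5, TRIM6, TRIM14, TRIM16, TRIM21, TRIM22, TRIM25, TRIM26, TRIM34, TRIM38, TRIM44, TRIM56 and TRIM69). Of the 19 calls with circ0004592 the same 14 genes held in every setting, and TRIM8, TRIM27, TRIM33, TRIM39 and TRIM52 were lost in at least 1. Against NC, 18 of the 46 members were called in neither line, a number for which no share over all genes was computed. Apart from TRIM55 and TRIM58, which had libraries at or under the floor, these were TRIM4, TRIM9, TRIM11, TRIM13, TRIM23, TRIM24, TRIM32, TRIM35, TRIM36, TRIM45, TRIM46, TRIM47, TRIM59, TRIM62, TRIM66 and TRIM68. Their log2 changes ran between -0.35 and 0.33 with circ0003553 and between -0.46 and 0.35 with circ0004592 in PC3, and between -0.16 and 0.37 and between -0.27 and 0.35 in DU145. In single comparisons, 25 and 27 of the 46 members were not called in PC3, and 38 and 42 in DU145. Of all 17869 genes tested, 12828 and 13429 were not called in PC3, and 15986 and 16102 in DU145.

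Set against its own NC library, without a test, each circRNA gave the same 10 members at least 2-fold higher in PC3: TRIM5, TRIM14, TRIM21, TRIM22, TRIM25, TRIM26, TRIM34, TRIM38, TRIM55 and TRIM69. That is 21.7% of the 46 members, where 2.81% of all genes tested were at least 2-fold higher in both pairs. Single pairs had 4.17% of all genes at least 2-fold higher with either circRNA, and 2.29% and 2.26% lower. At least 2-fold lower in both pairs were 0 members (0.666% of all genes), and TRIM2 was so in the pair of circ0004592. TRIM55, a muscle ligase, belongs to them on few reads, with 8 and 15 counts in the circRNA libraries, against 2 and 6 counts in the NC libraries, and no fold is given. Over the 43 members with no library at or under the floor, the log2 folds of the 2 pairs, which share no library, had a Pearson r of 0.991 and a Spearman rho of 0.945 in PC3, and r was 0.917 over the 34 of them that are not interferon-linked. In DU145 r was 0.264 and rho 0.0803, and r over the same 34 members was 0.209. The points of a pair share its 2 libraries, and these correlations across genes are descriptions. In DU145 0 of 46 members were at least 2-fold higher in both pairs (0.218% of all genes) and 0 at least 2-fold lower (0.0783%). In single pairs 1.04% and 1.21% of all genes were at least 2-fold higher and 0.437% and 0.957% lower. Without TRIM22, TRIM55 and TRIM58, which had a library at or under the floor, log2 folds ran between -0.59 and 0.42 with circ0003553 and between -0.88 and 0.51 with circ0004592.

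**Figure D3:**
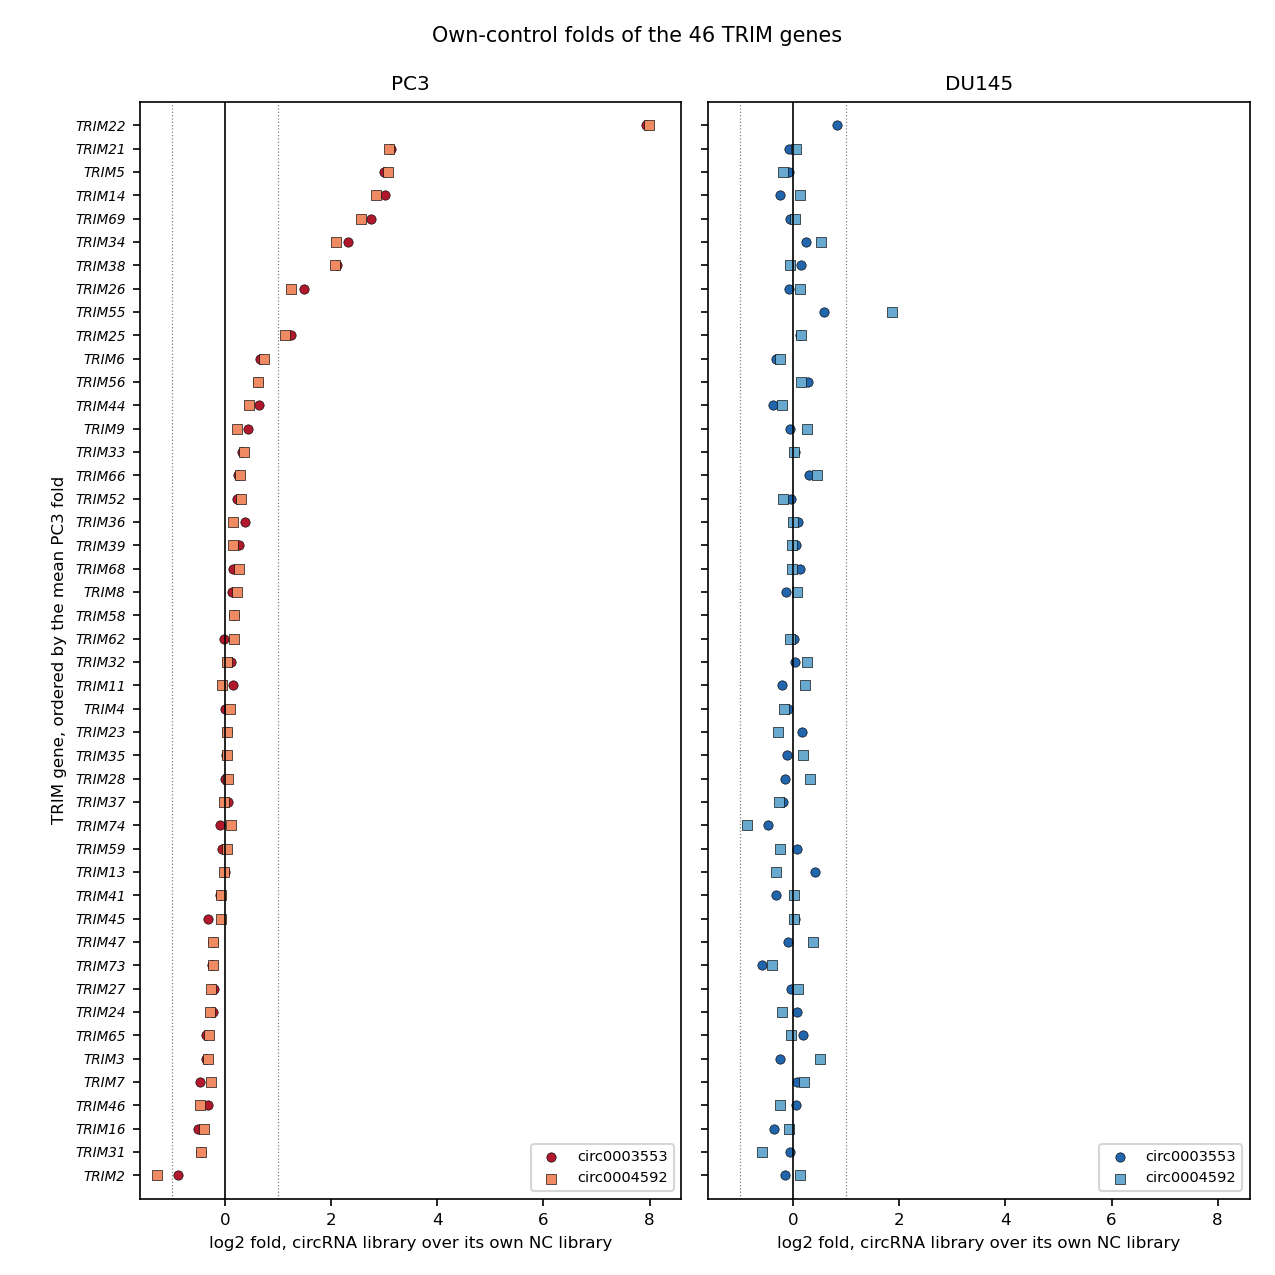
Log2 fold of each circRNA library over its own NC library (prior count of 2) for the 46 TRIM genes, in PC3 and DU145; dotted lines mark 2-fold, circles circ0003553 and squares circ0004592, and a fold with a library at or under 6 counts is not drawn. In PC3 the circles and squares run together down the list, and in DU145 they scatter about 0.

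In DU145 fewer TRIM genes were called than in PC3, and mostly by small amounts. With circ0003553 8 of 46 (17.4%) were called, 1 higher (2.17%) and 7 lower (15.2%). Of all genes 10.5% were called, 4.24% higher and 6.3% lower, so the share of members called lower was above that of all genes. TRIM56 was called higher (0.28 ± 0.06), and TRIM73 (-0.59 ± 0.13), TRIM16, TRIM6 (-0.33 ± 0.08), TRIM44 (-0.32 ± 0.06), TRIM41 (-0.28 ± 0.06), TRIM14 (-0.24 ± 0.06) and TRIM37 (-0.20 ± 0.06) lower. With circ0004592 4 (8.70%) were called (1 higher and 3 lower), where 9.89% of all genes were called, 5.24% higher and 4.65% lower. These were TRIM28 higher (0.29 ± 0.07), and TRIM74 (-0.88 ± 0.26), TRIM37 (-0.27 ± 0.06) and TRIM44 (-0.27 ± 0.06) lower. TRIM37, which restrains centrosome assembly, had 104 and 99.5 CPM with the circRNAs, against 120.0 and 121 CPM with NC in DU145, and TRIM28 had 72.2 and 96.3 CPM, against 80.4 and 77.4 CPM. For TRIM28 the circRNA values lay on opposite sides of the controls. With either DU145 NC library taken out, the DU145 calls were lost for both circRNAs. The spread then rests on fewer controls, and fewer members were called in PC3 as well. The share over all genes in these settings is not given here, so the loss is not read as particular to TRIM genes. TRIM73 and TRIM74 are near-identical copies between which reads may be split.

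For 8 of the 10 interferon-linked members no change was called in DU145 with either circRNA. By circRNA, 8 and 10 of the 10 were not called with circ0003553 and circ0004592. Over all 17869 genes tested, 15986 and 16102 were not called there, so these counts are not particular to the members. TRIM22 is among the 8 on 20 and 0 counts with the circRNAs and 9 and 2 with NC, too few to read. The 95% intervals of the log2 change with circ0003553 were -0.27 to 0.03 for TRIM21, -0.27 to 0.06 for TRIM5 and 0.03 to 0.26 for TRIM25, and with circ0004592 they were -0.07 to 0.25, -0.35 to 0.01 and 0.02 to 0.26. The interval of TRIM34 reached further, 0.08 to 0.70 with circ0003553, on 3.71 to 5.59 CPM. All these bounds lie below the PC3 changes of the same genes.

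Tested directly, the effect in PC3 minus the effect in DU145 was called for 18 of 46 members with circ0003553 (15 higher and 3 lower), where 22.6% of all genes were called, 13.4% higher and 9.24% lower. With circ0004592 it was called for 20 (15 higher and 5 lower), where 19.5% of all genes were, 10.6% higher and 8.91% lower. All 10 interferon-linked members were called higher with each circRNA. TRIM14 had the highest difference among members above the floor with circ0003553 (3.33 ± 0.09; edgeR adjusted p 8.78e-16), with a rise in PC3 and a fall in DU145, and its difference with circ0004592 was 2.65 ± 0.09. The differences of TRIM21 were 3.24 ± 0.10 and 3.01 ± 0.10 and those of TRIM5 3.16 ± 0.11 and 3.18 ± 0.12. TRIM6 (1.04 ± 0.12 and 0.92 ± 0.12) and TRIM44 (0.95 ± 0.08 and 0.73 ± 0.08) also differed, with calls of opposite sign for circ0003553 in the 2 lines. With either DU145 NC library taken out the spread rests on fewer controls, and the share over all genes is not given here. Fewer members were then called for both circRNAs. TRIM5, TRIM14, TRIM21, TRIM25, TRIM38, TRIM44 and TRIM69 were among them each time, and the other interferon-linked members lost calls. TRIM26 and TRIM56 were lost with either DU145 NC taken out, TRIM22 without the DU145 NC of circ0003553, and TRIM34 without that library for circ0004592. In the fit over both lines at once 0 of 46 members were called with either circRNA, where 0% of all genes were. By unadjusted p 4 and 2 members were below 0.05, and DESeq2 also called 0.

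Between the circRNAs, 0 of 46 TRIM genes were called in PC3 by edgeR, where 0.0672% of all genes were (0.0112% higher and 0.056% lower), with 2 at an unadjusted p below 0.05 and 1 call by DESeq2. TRIM14 came nearest, at 463 CPM with circ0003553, against 369 CPM with circ0004592 (log2 0.33 ± 0.07, 95% interval 0.19 to 0.46; edgeR adjusted p 0.0937). In DU145 8 of 46 were called, 3 higher and 5 lower with circ0003553, where 13.4% of all genes were called, 5.47% higher and 7.93% lower. TRIM13 (0.64 ± 0.21) and TRIM38 (0.32 ± 0.09) were higher, and TRIM28 (-0.41 ± 0.08), TRIM47 (-0.36 ± 0.12), TRIM14 (-0.36 ± 0.07), TRIM16 (-0.29 ± 0.07) and TRIM41 (-0.24 ± 0.07) lower. TRIM22 was the eighth, on 20 against 0 counts. Each side is 1 library, and with either DU145 NC library taken out these calls were lost. The share over all genes in those settings is not given here.

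Grouped by C-terminal domain, the PRY-SPRY class, whose domain binds the substrate in TRIM5 and TRIM21, held the most members. The counts below stand against 15.6% higher and 12.6% lower over all genes tested with circ0003553, and 13.2% and 11.7% with circ0004592. The RING-less TRIM14, TRIM16 and TRIM44 were put in no class, whatever C-terminal domain they carry. Of the 21 tested members classed as PRY-SPRY, 9 were called higher and 3 lower with circ0003553. With circ0004592 10 were called higher and 1 lower, and the median log2 changes were 0.16 and 0.21. Those higher with each circRNA were TRIM6 and the interferon-linked TRIM5, TRIM21, TRIM22, TRIM25, TRIM26, TRIM34, TRIM38 and TRIM69. Of the 3 members with NHL repeats, 0 were called higher and 2 lower (TRIM2 and TRIM3) with circ0003553, and 0 higher and 1 lower (TRIM2) with circ0004592. Of the 4 members with a PHD finger and bromodomain, TRIM33 was called higher and 0 lower with each circRNA. Among the 6 members with no C-terminal domain, TRIM56 and TRIM52 were called higher and TRIM31 lower with circ0003553, and TRIM8, TRIM52 and TRIM56 higher with circ0004592. The 3 members with COS, fibronectin and SPRY domains (TRIM9, TRIM36 and TRIM46) had 0 calls in PC3. Of the 4 RING-less members tested, 2 were called higher (TRIM14 and TRIM44) and 1 lower (TRIM16) with each circRNA in PC3.

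Several of the members that were higher in PC3 are neighbours on chromosome 11. In the deposited gene models (hg38 per the submitters' processing notes) TRIM6 (chr11:5596109-5612958), TRIM34 (chr11:5619764-5644398), TRIM5 (chr11:5663557-5938619) and TRIM22 (chr11:5689689-5737089) follow one another, and the model of TRIM5, on the minus strand, spans that of TRIM22, on the plus strand. TRIM21 (chr11:4384897-4393696) and TRIM68 (chr11:4598672-4608259), which lie 205 kb apart, differed in their calls. TRIM68 had 15.9 and 16.1 CPM in PC3 with the circRNAs, against 14.4 and 13.5 CPM with NC, and was not called. Further along the chromosome, TRIM3 was called lower with circ0003553 and TRIM66 was not called. On chromosome 6, TRIM26 and TRIM38 were called higher with each circRNA and TRIM27 lower. Also there, TRIM31 was called lower with circ0003553 only and TRIM39 higher with circ0004592 only. TRIM39 shares 29.5% of its exonic bases on the same strand with TRIM39-RPP21, and reads cannot be told apart between the pair with certainty.

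Between the control libraries of the lines, TRIM genes were called about as often as other genes. In PC3 NC against DU145 NC 37 of 46 members were called (80.4%, 22 higher and 15 lower), where 82.5% of all genes were called, 41.6% higher and 40.9% lower. TRIM58, an erythroid ligase, was at 52.4 and 52.4 CPM in the PC3 NC libraries, against 0.0438 and 0.105 CPM in the DU145 NC libraries, which held 2 and 4 counts. Taken against the higher of the 2 per-library floors, 0.157 CPM, its mean in PC3 NC was at least 334-fold higher. TRIM58 was not called within PC3, where the circRNA libraries had 58.5 and 58.9 CPM. TRIM9, a neuronal ligase, had 9.91 and 11.8 CPM in PC3 NC, against 1.91 and 1.99 CPM in DU145 NC (log2 2.48 ± 0.15). TRIM31 had 9.61 and 9.72 CPM in PC3 NC, against 2.19 and 2.59 CPM in DU145 NC (log2 2.02 ± 0.15). TRIM16 was the clearest in the other direction, with 25.3 and 24.6 CPM in PC3 NC, against 135 and 134 CPM in DU145 NC (log2 -2.43 ± 0.06).

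TRIM74 (1.21 ± 0.17), TRIM3 (1.09 ± 0.13), TRIM66 (1.03 ± 0.14), TRIM73 (0.92 ± 0.10), TRIM2 (0.91 ± 0.13), TRIM68 (0.60 ± 0.10), TRIM28 (0.55 ± 0.05), TRIM8 (0.48 ± 0.06), TRIM39 (0.44 ± 0.08) and TRIM4 (0.42 ± 0.06) were also higher in PC3 NC, as were TRIM47 (0.34 ± 0.08) and TRIM37 (0.26 ± 0.05). TRIM23 (-1.07 ± 0.12), which carries an ARF domain, TRIM59 (-0.82 ± 0.08), TRIM7 (-0.72 ± 0.10), TRIM41 (-0.58 ± 0.05), TRIM6 (-0.54 ± 0.07), TRIM27 (-0.51 ± 0.05), TRIM45 (-0.44 ± 0.14), TRIM24 (-0.44 ± 0.09), TRIM44 (-0.35 ± 0.05), TRIM65 (-0.30 ± 0.08) and TRIM35 (-0.19 ± 0.07) were lower, as was TRIM55 on 2 and 6 against 36 and 12 counts. Of the interferon-linked members, TRIM14 (-1.12 ± 0.05) and TRIM26 (-1.03 ± 0.07) were lower in PC3 NC, and TRIM56 (0.92 ± 0.05), TRIM69 (0.77 ± 0.09), TRIM34 (0.41 ± 0.14), TRIM38 (0.38 ± 0.06), TRIM21 (0.36 ± 0.06) and TRIM25 (0.27 ± 0.05) higher, as was TRIM22 on 42 and 40 against 9 and 2 counts. TRIM5 was not called, like TRIM11, TRIM13, TRIM32, TRIM33, TRIM36, TRIM46, TRIM52 and TRIM62, and was at 20.8 and 19.1 CPM in PC3 NC and 17.8 and 18.3 CPM in DU145 NC. TRIM34, TRIM35, TRIM39, TRIM45, TRIM55 and TRIM65 lost their call in at least 1 other setting.

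**Figure D4:**
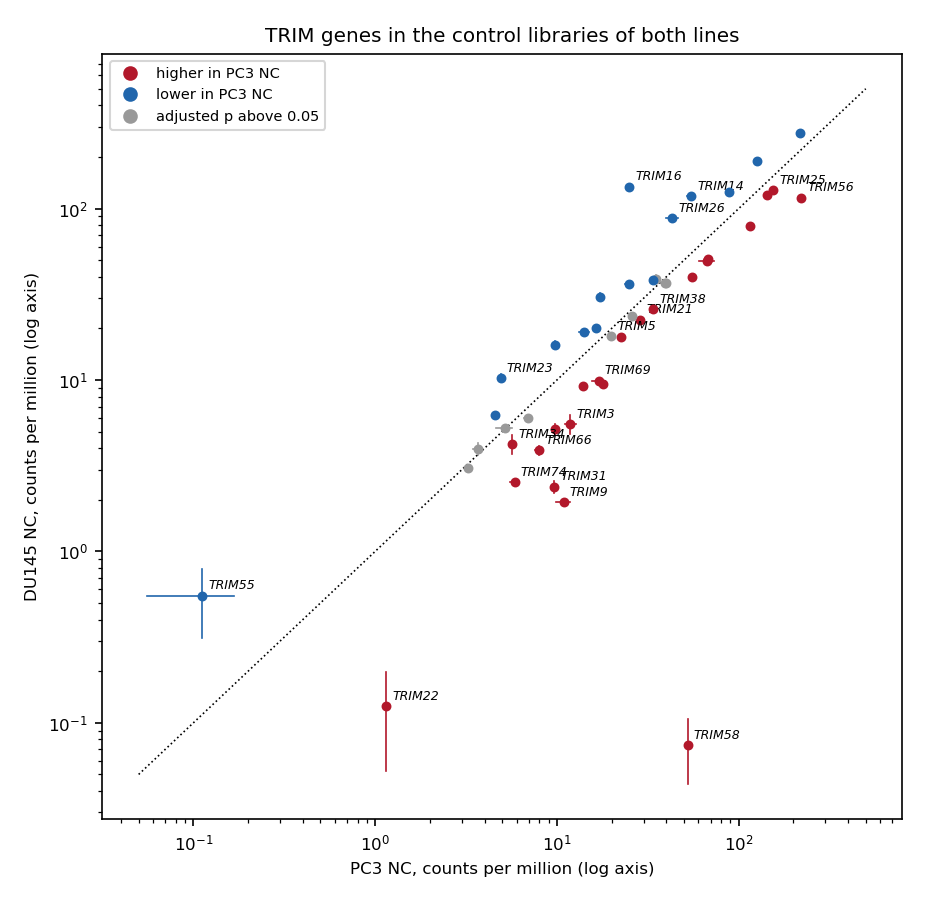
Mean CPM of the 46 TRIM genes in the 2 PC3 NC and the 2 DU145 NC libraries (both axes log; red, higher in PC3 NC; blue, lower; grey, adjusted p above 0.05; the arms of each cross join the 2 libraries of a line; dotted line, equal levels). TRIM58 lies farthest from the line, at 52.4 CPM in PC3 NC and 0.0742 CPM in DU145 NC, and TRIM16 stands out on the DU145 side.

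Genes around the TRIM ligases were read from lists of their partners, beside the shares over all genes tested in PC3 of 15.6% higher and 12.6% lower with circ0003553, and 13.2% and 11.7% with circ0004592. Of 20 sensors and adaptors with which TRIM proteins work, 10 were called higher and 2 lower in PC3 with circ0003553, and 11 higher and 3 lower with circ0004592. IFIH1 (MDA5) was at 470.2 and 458 CPM with the circRNAs, against 10.6 and 9.41 CPM with NC, and DDX58 (RIG-I), a substrate of TRIM25, at 375 and 342 CPM, against 10.2 and 10.4 CPM. ZC3HAV1 (ZAP) had 367 and 338 CPM with the circRNAs, against 38.6 and 36.9 CPM with NC. In DU145 1 of the 20 was called higher and 1 lower with circ0003553, and 1 higher and 2 lower with circ0004592. These counts are near the shares over all genes tested in DU145, 4.24% higher and 6.3% lower with circ0003553, and 5.24% and 4.65% with circ0004592. Of 22 ubiquitin genes, activating enzymes and conjugating enzymes, 9 were called higher and 5 lower in PC3 with circ0003553, and 9 higher and 4 lower with circ0004592. The largest of these were the ISG15 enzymes UBE2L6, at 144 and 153 CPM with the circRNAs, against 19.9 and 17.5 CPM with NC, and UBA7, at 21.1 and 25.1 CPM, against 2.40 and 3.18 CPM.

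Of 20 core interferon-response genes, 20 were called higher in PC3 with each circRNA, with medians of 5.58 and 5.63 on the log2 scale. They summed to 19126 and 18541 CPM with the circRNAs, against 473 and 483 CPM with NC, and in DU145 to 422 and 429 CPM, against 375 and 375 CPM. In DU145 12 of the 20 were called higher with circ0003553 and 8 with circ0004592. Over all genes tested there, 4.24% and 5.24% were called higher. Whether the TRIM changes follow from this response was not tested. Another large ligase family served as comparison: of 64 tested RNF genes 12 were called higher and 7 lower in PC3 with circ0003553, and 12 higher and 9 lower with circ0004592, with medians of -0.04 and -0.07. The corresponding shares over all genes tested were 15.6% higher and 12.6% lower, and 13.2% and 11.7%. PML, a TRIM protein named otherwise, which builds nuclear bodies, had 66.6 and 63.9 CPM in PC3 with the circRNAs, against 12.8 and 12.6 CPM with NC (log2 2.39 ± 0.08 and 2.33 ± 0.08), and was not called in DU145.

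The labels were checked against other genes. CTNNA1, which is deleted in PC3, was at 3.88 to 4.65 CPM in PC3 libraries and at 391 to 427 CPM in DU145 libraries. The 5 epithelial markers were detected in every library, although CDH1 stayed at 0.736 to 1.17 CPM in PC3. RCAN3 had 44.6 CPM in PC3 with circ0003553, against 33.0 and 29.5 CPM with NC, and STK3 19.5 CPM with circ0004592, against 7.65 and 9.13 CPM with NC. In DU145 RCAN3 had 36.9 CPM with circ0003553, against 20.8 and 18.2 CPM with NC, whereas STK3 had 33.8 CPM with circ0004592, against 28.7 and 26.1 CPM with NC, and was not called (log2 0.30 ± 0.10; edgeR adjusted p 0.0745). The sample names give these genes for the 2 arms, and a gene's count does not tell circular from linear RNA.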

How the data were processed

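RNA of 8 PC3 and DU145 libraries was sequenced as paired reads from a stranded, rRNA-depleted kit with molecular identifiers, per the labels' protocols. The authors deposited counts per gene and RPKM, and the submitters' processing notes name Trimmomatic 0.36, featureCounts of Subread 1.5.1, edgeR 3.12.1 and hg38. The aligner, annotation and strand setting are not given in the sources used here. Deposited RPKM values equal the deposited count per gene length and library total. The 5511 genes in only 1 table, with at most 14 counts, were given 0 in the other, and 0 columns lay outside the series. Columns were mapped by sample title, since the description of 4 of the 8 samples names the table of the other arm. Low counts were mostly even, so the floor of 3 read pairs was taken as 6 counts. Members and lists were chosen with earlier results of these data known.

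Genes at 1 CPM (on effective library sizes) in at least 2 libraries were tested with edgeR 4.0.16 (R 4.3.3) by quasi-likelihood with TMM, 6 groups and 2 residual degrees of freedom, the lone circRNA library being assumed to vary like the controls, with Benjamini-Hochberg adjustment over all genes. Over both lines the fit had 4 blocks of line and arm. For single-library folds a prior count of 2 was added. Only the edgeR fit with 6 groups was tried on simulated data, for circ0003553 against NC in PC3. Every simulated library had the same spread, so that assumption for the lone circRNA library was not tested. Alternatives were DESeq2 1.42.0, DESeq2 size factors, no filter, a filter of 5 CPM, limma 3.58.1 on log2(RPKM + 0.1), pooled circRNA libraries, the block, and leaving out each library. All interferon-linked members were named in every library, and others by size of change among called members. Intervals and floors cover counting error or the fitted spread only.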

Additional observations from a re-analysis of the deposited data

Results flagged for a closer look

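The effect of a circRNA on its NC differed between PC3 and DU145 for 18 TRIM genes with circ0003553 and for 20 with circ0004592, by edgeR's interaction test with Benjamini-Hochberg adjustment over all genes. The values in brackets are the log2 change in PC3 minus that in DU145. With circ0003553 the higher effects in PC3 were those of TRIM14 (3.33), TRIM21 (3.24), TRIM5 (3.16), TRIM69 (2.66), TRIM34 (1.97), TRIM38 (1.87), TRIM26 (1.42), TRIM25 (1.05), TRIM6 (1.04), TRIM44 (0.95), TRIM56 (0.39), TRIM33 (0.31), TRIM52 (0.31) and TRIM37 (0.24). The effects of TRIM65 (-0.56), TRIM7 (-0.60) and TRIM2 (-0.83) were lower in PC3. The calls of TRIM33, TRIM52 and TRIM37 were the least steady and held in 2, 1 and 0 of the 11 other settings. TRIM22 was called as well (adjusted p 3.38e-06), and no fold is given because DU145 libraries lay at or under the floor.

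With circ0004592 the effect was higher in PC3 for TRIM5 (3.18), TRIM21 (3.01), TRIM69 (2.69), TRIM14 (2.65), TRIM38 (2.22), TRIM34 (1.75), TRIM26 (1.27), TRIM74 (1.06), TRIM25 (1.05), TRIM6 (0.92), TRIM44 (0.73), TRIM52 (0.45), TRIM56 (0.43) and TRIM37 (0.26). It was lower in PC3 for TRIM28 (-0.29), TRIM16 (-0.34), TRIM27 (-0.35), TRIM47 (-0.57) and TRIM2 (-1.32). TRIM22 was called too, with an adjusted p of 3.52e-07. TRIM16, TRIM27, TRIM28, TRIM47 and TRIM74 were called here and not with circ0003553, but the difference between the circRNAs was not tested for this contrast. Of the calls with circ0003553, TRIM2, TRIM6, TRIM7, TRIM22, TRIM26, TRIM56 and TRIM65 were also lost in at least 1 other setting. With circ0004592, TRIM37 held its call in 4 of the 11 other settings. TRIM2, TRIM6, TRIM16, TRIM22, TRIM26, TRIM27, TRIM28, TRIM34, TRIM47, TRIM52, TRIM56 and TRIM74 lost theirs in at least 1. Every circRNA value rests on 1 library in each line. The 10 interferon-linked genes are among the called members for both. No group has 4 or more libraries, so single libraries that stand apart from their group could not be tested.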

How the results depend on the processing

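For the within-line comparisons in PC3 the count of called TRIM genes (21 with circ0003553 and 19 with circ0004592) stayed within 1.5 times under every setting tried, and leaving out 1 library at a time gave 14 to 23 and 14 to 20. The 10 interferon-linked members were called higher in PC3 in each of these settings. With circ0003553 and circ0004592 in DU145 the counts of 8 and 4 became 0 and 0 with limma on deposited RPKM, 0 and 0 with both circRNA libraries of the line as 1 group, and 0 and 0 with a replicate block by line and arm. Leaving out 1 library gave 0 to 9 and 0 to 8 there, and the value of 0 came without either DU145 control. With the replicate block PC3 had 15 called members for the circRNAs taken as 1 term. The labels give an arm and no shared day or culture, so the block is a pairing by name only. For the difference between lines, leaving out 1 library gave 8 to 17 called members with circ0003553 and 7 to 21 with circ0004592. Between the circRNAs in PC3 the count of 0 became 1 without a filter and 1 with DESeq2, and 0 to 1 when 1 library was left out. In DU145 the 8 became 5 without a filter, 5 with DESeq2 and 0 with limma, and 0 to 10 when 1 library was left out. Over both lines the 0 became 1 for each circRNA without a filter, and 0 to 0 when 1 library was left out. In PC3 NC against DU145 NC, 33 to 38 members were called when 1 library was left out. No result reversed its direction in a setting that was run. The cause of these changes was not tested, and the shares over all genes in these settings are not given here. TRIM22, TRIM55 and TRIM58 are limited by depth, having 0 to 20 counts in some libraries. With 2 residual degrees of freedom the spread rests on few controls.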
